A study of Mus musculus with 8 samples.

Results

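The circadian clock genes described here were Per1, Per2, Per3, Cry1, Cry2, Arntl, Clock, Nr1d1, Nr1d2 and Dbp. They were 10 of 41784 entries in a gene table built from short-read normalized counts. For each gene the assembled locus on its strand with the largest shared span was taken, if it shared at least 0.5 of the joint span with the GENCODE M21 gene. Where no such locus existed, the RefSeq accession entries of the gene were summed. Per1, Per3, Cry1, Clock, Nr1d1, Nr1d2 and Dbp were read from a locus, and Per2, Cry2 and Arntl from 3, 2 and 15 accession entries.

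RNA came from nuclei of HL1 cells, which are cultured mouse heart muscle cells of the atrial AT-1 lineage. Urea (0.5 M) and NP-40 substitute (0.5%) were used to split the nuclei into a soluble nucleoplasm fraction and a pelleted chromatin fraction. Short reads of 50 bp covered 3 chromatin and 3 nucleoplasm libraries, both fractions coming from the same set of 3 cultures, and long reads covered 2 chromatin libraries. The short-read comparison gives the level of each RNA in chromatin relative to nucleoplasm. The paper names nascent transcripts as enriched in chromatin-bound RNA, and here they cannot be told apart from finished RNA held on chromatin. All groups were the same untransfected line in medium with 10% serum and 0.1 mM norepinephrine, with no treatment or genotype compared, and the time of harvest relative to any clock phase was not given in the sources used here.

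The mammalian clock is a feedback loop of transcription. CLOCK and BMAL1, the product of Arntl, bind E-boxes and activate the Per and Cry genes, whose proteins return to the nucleus and repress that activity. The REV-ERB receptors encoded by Nr1d1 and Nr1d2 repress Arntl, and DBP drives D-box genes as an output. In heart muscle the loop runs within the cardiomyocyte and sets daily rhythms in metabolism and excitability.

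The short-read libraries held 100595246, 93400735 and 91657034 recovered reads for chromatin, in the order of their replicate numbers, and 102000472, 96684935 and 121773350 for nucleoplasm. All values below keep that order. These totals are sums of counts recovered from the gene table and not of the reads sequenced. The unit check described under processing did not accept those of nucleoplasm replicate 1. Malat1 and Pvt1, noncoding RNAs known from chromatin, stood higher in chromatin (log2 fold change 3.82 and 3.93), and the mRNAs Gapdh and B2m stood lower (-2.07 and -2.67). These 4 directions held under every scaling tried, and the Malat1 call was lost only without a filter on low values (adjusted p = 0.403, with 5.05e-195 to 0.403 over all alternatives).

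The label was checked against cell type markers. Of 10 atrial cardiomyocyte markers, 7 were matched to an entry and all 7 were above 0, and Myh6, Tnnt2 and Gja5 were not matched under the rule. Ryr2, the sarcoplasmic calcium release channel, had the most normalized counts of them over both fractions, with Myl7 and Actc1 above it in nucleoplasm. Per kb of annotated exon, Gata4, Actc1 and Myl7 were above Ryr2 by the mean of each fraction. The locus read as Gata4 ran over chr14:63145150-63272419, past the annotated 3′ end of the gene at 63198922, so its level may hold RNA from outside Gata4. Nppa, the atrial natriuretic peptide gene, lay between 10.4 and 113 normalized counts. All 5 fibroblast markers were above 0, led by Col1a1 with a mean of 257260.4 in nucleoplasm. Among endothelial markers Cdh5 was at 0 in every library, and among macrophage markers Adgre1 was at 0 and Ptprc was at most 4.07.

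Replicate 3 stood apart in both fractions by its cardiomyocyte, fibroblast and endothelial sums. The cardiomyocyte list summed to 310336, 301842 and 210962 normalized counts in chromatin, and to 138772, 145637 and 86992 in nucleoplasm. The fibroblast list summed to 120669.7, 135634 and 174008 in chromatin and to 259203, 253853 and 461035 in nucleoplasm. Endothelial markers, led by Kdr, summed to 1814, 1942 and 1078 in chromatin and 3022, 2870.5 and 1788 in nucleoplasm. Macrophage markers, led by Cd68, stayed between 76.8 and 180.0 in all libraries. Replicate 3 thus had the lowest cardiomyocyte sum and the highest fibroblast sum of each fraction. The locus of the cardiomyocyte marker Gata4, which runs past the gene, was instead highest in replicate 3 of both (82875 and 20977). In such bulk RNA, fewer cells of a type and less RNA per cell cannot be told apart, and the part of these marker levels in the clock gene values was not tested.

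Of the 10 clock genes, 6 were called higher in chromatin and 2 lower, at an adjusted p under 0.05 by limma on log2(normalized count + 1). Among all 29669 entries tested, 32.3% were called higher and 26% lower. More than 4 fold, 17% of all entries were higher and 5.65% lower, and no clock gene passed that size in either direction by limma on the deposited scale, although Per3 (2.49) and Nr1d2 (2.20) did with equal ERCC totals. The median log2 fold change of the clock genes was 0.62, against 0.34 over all entries and -0.30 over 13142 named assembled loci. With replicate 3 of both fractions left out, an alternative chosen after seeing the data, 6 clock genes were higher and 4 lower. Over all entries that setting gave 9965 higher and 8383 lower. Counting only entries that lie strictly inside the annotated gene left 3 of the 10 genes, Cry1, Arntl and Dbp, with 0 higher and 1 lower by limma. The replicate number as a block gave 6 clock genes higher and 3 lower, and over all entries 10787 and 8982. With libraries scaled to equal totals of ERCC standards the counts were 7 and 0, and over all entries they went from 9593 higher and 7708 lower to 12519 and 3293.

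**Figure D1:**
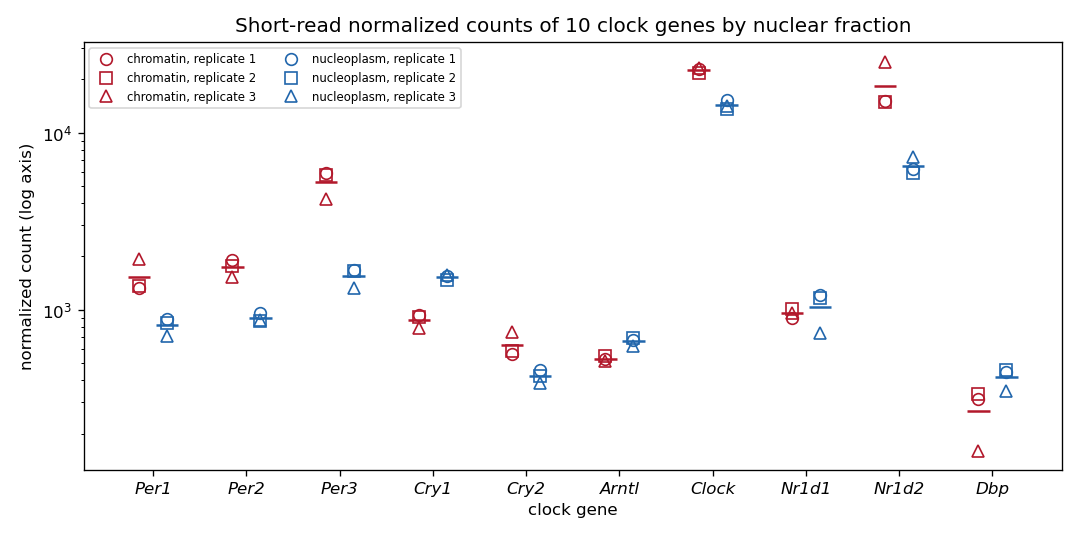
Short-read normalized counts on a log axis for the 10 clock genes, with a symbol for each replicate of chromatin and nucleoplasm and a bar at each mean of 3 libraries. Clock and Nr1d2 had the highest counts. The fractions of Nr1d1 overlapped, and the share of all entries without overlap was not worked out.

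The PER proteins are the negative limb of the loop and pair with CRY proteins to repress CLOCK and BMAL1. Per1 (chr11:69095217-69109960, plus strand) had 1328, 1353 and 1936 normalized counts in chromatin and 890.3, 844 and 713 in nucleoplasm. All chromatin libraries lay above all nucleoplasm libraries, with chromatin replicate 3 the highest and nucleoplasm replicate 3 the lowest. The means were 1539 ± 344 and 816 ± 91.8 (SD, n = 3 each), a log2 fold change of 0.90 (95% confidence interval 0.47 to 1.33, limma adjusted p = 0.00456). By replicate number the log2 ratio was 0.58, 0.68 and 1.44, so the third pair showed the widest gap for Per1.

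Per2 (chr1:91415982-91459324, minus strand) had 1908, 1769 and 1532 normalized counts in chromatin and 960.0, 867 and 881 in nucleoplasm. The fractions did not overlap, and the chromatin level was lowest in replicate 3, unlike that of Per1. Its log2 fold change came to 0.94 (0.67 to 1.21, limma adjusted p = 0.000465). Below the sum, the entries of Per2 went in opposite directions. Its main curated transcript model had 580.4, 570.1 and 267 normalized counts in chromatin and 889, 861 and 713 in nucleoplasm. A predicted model with almost the same span had 1303, 451 and 1238 in chromatin and 69.7, 4.79 and 166 in nucleoplasm. A shorter predicted model had 24.4, 748 and 26.0 in chromatin and at most 1.45 in nucleoplasm. The split of the Per2 counts among its entries thus differed between chromatin libraries, while the sum of all 3 stayed within 1532 to 1908, and the cause of the split was not tested.

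Per3 (chr4:151003652-151044665, minus strand) had the largest fold change of the 10 genes. Its normalized counts were 5877, 5724 and 4242 in chromatin and 1669, 1653 and 1329.9 in nucleoplasm. The lowest chromatin library of Per3 was above the highest nucleoplasm library, and replicate 3 was the lowest of both fractions. Chromatin over nucleoplasm gave a log2 fold change of 1.76 for Per3 (1.37 to 2.15, limma adjusted p = 0.000147), at percentile 79.4 of all entries and 90.4 of named loci. The 3 same-numbered pairs gave log2 ratios of 1.82, 1.79 and 1.67. The assembled Per3 locus ran from 150996792 to 151044723, past the annotated 3′ end of Per3. It lay inside the annotated span of Camta1 on the same strand, and reads of an unspliced Camta1 precursor could not be told apart from those of Per3 there.

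The cryptochromes, partners of PER, differed in direction. Cry1 (chr10:85131700-85185064, minus strand) had 929, 908 and 791 normalized counts in chromatin and 1554, 1480.2 and 1566 in nucleoplasm. Each nucleoplasm library of Cry1 was above each chromatin library, and the spread within a fraction was small (SD 74.3 and 46.6, n = 3 each). The log2 fold change of Cry1 was -0.81 (-1.05 to -0.57, limma adjusted p = 0.000508), and it came to -0.08 with equal ERCC totals (adjusted p = 0.772, with 2.77e-09 to 0.772 over all alternatives).

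Cry2 (chr2:92403646-92434043, minus strand) had 566, 588 and 747 normalized counts in chromatin and 456, 421 and 384 in nucleoplasm. Chromatin was above nucleoplasm in every library of Cry2, most of all in replicate 3. For Cry2 the log2 fold change was 0.58 (0.23 to 0.93, limma adjusted p = 0.0125). A noncoding transcript on the opposite strand of Cry2 had at most 4.07 normalized counts in any library.

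CLOCK and BMAL1 form the activator of the loop, and their genes differed in direction on the deposited scale. The sign of Arntl turned to that of Clock with equal ERCC totals (0.40) and with accession matches only (0.44). Clock (chr5:76209868-76304792, minus strand) had 22894, 21575 and 23154 normalized counts in chromatin and 15283, 13557 and 14059.5 in nucleoplasm. The Clock fractions were well apart relative to their SD of 847 and 888 (n = 3 each). Clock had a log2 fold change of 0.66 (0.43 to 0.89, limma adjusted p = 0.00106). Quantile normalization, which also moved the median of all entries to -0.05, gave Clock 0.24 (adjusted p = 0.07, with 9.66e-10 to 0.07 over all alternatives). On the opposite strand an assembled locus at chr5:76183880-76210991, named Tmem165 by its span, reached the end of Clock with means of 8939.6 in chromatin and 4414 in nucleoplasm.

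Arntl (chr7:113207465-113314126, plus strand) had 524, 549 and 515 normalized counts in chromatin and 679, 692 and 625 in nucleoplasm. Every chromatin library of Arntl was below every nucleoplasm library, with SDs of 17.6 and 35.1 (n = 3 each). This gave Arntl a log2 fold change of -0.33 (-0.56 to -0.09, limma adjusted p = 0.0254), and its sign turned with equal ERCC totals (0.40, adjusted p = 0.115). The call on Arntl was lost without nucleoplasm replicate 1 (adjusted p = 0.0751) or 2 (0.0763), with quantile normalization (0.283) and without the trend (0.0548), in a range of 0.00683 to 0.283 over all alternatives. Summing only the entries strictly inside the annotated gene left 13 of the 15 and gave -0.71 (adjusted p = 0.0624). The Arntl entry with the highest nucleoplasm mean was matched by span and not by accession. With accession matches only, chosen after seeing the data, Arntl gave 0.44 (adjusted p = 0.105).

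The REV-ERB receptors repress transcription at the Arntl promoter. Nr1d1 (chr11:98767932-98775333, minus strand), which encodes REV-ERB alpha, had 899.5, 1004 and 959 normalized counts in chromatin and 1216, 1169 and 739 in nucleoplasm. The fractions of Nr1d1 overlapped because nucleoplasm replicate 3 lay below all chromatin libraries. Between the means of Nr1d1 the log2 fold change was -0.09 (-0.58 to 0.39, limma adjusted p = 0.71). The estimate for Nr1d1 rested on single libraries, with 0.04 without nucleoplasm replicate 1, 0.01 without 2, -0.32 without 3 (adjusted p = 0.0233) and -0.33 with replicate 3 of both fractions left out (adjusted p = 0.0434). Equal ERCC totals gave 0.64 (adjusted p = 0.0196, with 0.0196 to 1.0 over all alternatives). Thra, on the opposite strand at chr11:98741776-98769006, overlaps the 3′ end of Nr1d1 and had means of 1822 in chromatin and 3273 in nucleoplasm.

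Nr1d2 (chr14:18204054-18239127, minus strand), which encodes REV-ERB beta, had 15133, 14874 and 25055 normalized counts in chromatin and 6192, 5923 and 7312 in nucleoplasm. Chromatin was above nucleoplasm throughout, and replicate 3 was the highest Nr1d2 library of both fractions. Nr1d2 thus had a log2 fold change of 1.46 (0.9307 to 1.9987, limma adjusted p = 0.00135), or 1.31 with replicate 3 of both fractions left out (adjusted p = 0.00176, with 5.37e-10 to 0.0106 over all alternatives).

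Dbp (chr7:45705088-45710203, plus strand) encodes a PAR bZIP activator that carries the clock signal to output genes. It had 312, 334 and 160.3 normalized counts in chromatin and 444, 454 and 346 in nucleoplasm. All chromatin libraries of Dbp were below all nucleoplasm libraries, and replicate 3 was the lowest of each fraction. The log2 fold change of -0.68 (-1.41 to 0.04) did not pass (limma adjusted p = 0.0956). Without chromatin replicate 3 alone the Dbp value shrank to -0.35 (adjusted p = 0.132). With the replicate number as a block the adjusted p for Dbp was 0.0119. With replicate 3 of both fractions left out it was 0.00946 at -0.47, and with equal ERCC totals 0.893 at 0.05, the ends of the range over all alternatives. Sphk2 at chr7:45709463-45718002 overlaps Dbp on the opposite strand, with means of 1087 in chromatin and 1567 in nucleoplasm.

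**Figure D2:**
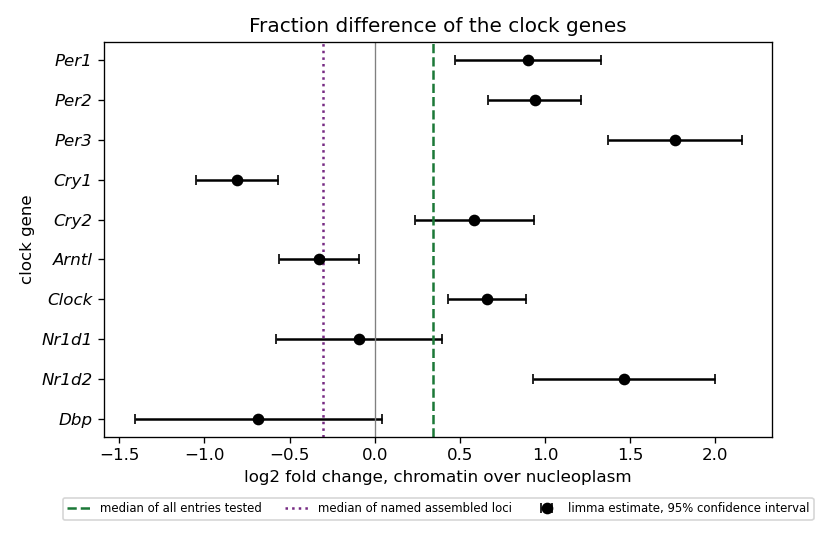
Log2 fold change of each clock gene, chromatin over nucleoplasm, with its 95% confidence interval from limma (3 libraries per fraction) and lines at the medians of all entries (0.34) and of named assembled loci (-0.30). Per3 and Nr1d2 lie farthest to the right and Cry1 farthest to the left, and Arntl, Nr1d1 and Dbp change sign with equal ERCC totals.

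The deposited scaling sets all these values relative to each library. Equal ERCC totals moved the median of all entries from 0.34 to 0.81. On that scale Per1 stood at 1.63, Per2 at 1.67, Per3 at 2.49, Cry2 at 1.32, Clock at 1.39 and Nr1d2 at 2.20. At the levels of the clock genes this scaling adds nearly the same amount to each, so their order could not change. With quantile normalization Per3 (1.88) was still highest, and Per2 (1.1833) came just above Nr1d2 (1.1753).

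Levels were compared between genes per kb of annotated exon. Those of Per2, Cry2 and Arntl are sums of accession entries and those of the other genes are assembled loci, so across these sources the measures are unlike. In chromatin Nr1d2 was highest, with 3393 ± 1073 normalized counts per kb (SD, n = 3), and Clock was next with 1642 ± 61.7. Per3 followed with 549.7 ± 94.0, and these 3 genes were separated from each other and from the rest in every library. Nr1d1 (310.0), Per2 (296), Per1 (273) and Cry1 (262) overlapped with their neighbours in that order. Cry2 (100.3), Dbp (89.8) and Arntl (70.4) were lowest and overlapped in turn.

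In nucleoplasm the order of levels was different below the top. Nr1d2 (1197 ± 136 per kb) and Clock (1042 ± 64.7) overlapped. Cry1 (459 ± 13.9) was separated from Clock above it and from Nr1d1 (338) below it, while Per3 (161), Per2 (154), Per1 (145) and Dbp (138) overlapped in turn. Arntl (88.4) and Cry2 (66.5) closed the order without overlap, but with Arntl matched by accession only, chosen after seeing the data, Arntl (40.01) was below Cry2 in every nucleoplasm library. Cry1 thus ranked 7 in chromatin and 3 in nucleoplasm, and Per3 ranked 3 and 5.

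Ratios between paralogs or partners within a library do not depend on its scaling. Where they include Per2, Cry2 or Arntl, they set summed accession entries against an assembled locus. How far this moves their size was not tested, apart from the accession matching of Arntl. The log2 ratio of Cry1 to Cry2, per length, was 1.635, 1.546 and 1.002 in chromatin and 2.69, 2.735 and 2.948 in nucleoplasm. Cry1 was thus 2.63 times Cry2 in chromatin and 6.92 times in nucleoplasm, with no overlap (exact permutation p = 0.1, two-sided). Each log2 ratio is given per library in that order, and 0.1 is the smallest p that 3 libraries against 3 allow.

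For the REV-ERB genes the log2 ratio of Nr1d2 to Nr1d1 was 3.258, 3.075 and 3.894 in chromatin and 1.535, 1.528 and 2.492 in nucleoplasm. Nr1d2 was thus 10.6 times Nr1d1 in chromatin and 3.61 times in nucleoplasm (exact p = 0.1). Clock to Arntl gave 4.58, 4.428 and 4.622 in chromatin and 3.625, 3.425 and 3.623 in nucleoplasm, or 23.3 and 11.8 times (exact p = 0.1). With Arntl entries matched by accession only, chosen after seeing the data, the difference in log2 ratio of Clock to Arntl fell from 0.99 to 0.22 and the fractions overlapped (exact p = 0.3). Per3 to Per1 differed by 0.86 between the fractions and Per3 to Per2 by 0.82 (exact p = 0.1 each), while Per2 to Per1 overlapped (exact p = 0.9). The pairs of Per3, Cry and REV-ERB genes thus separated the fractions in every library, and for Clock and Arntl the separation depended on the matching.

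Beyond these genes, 38 of 40 listed clock pathway genes were matched to an entry, and Bhlhe41 and Sirt1 were not under the matching rule. By limma 15 were higher in chromatin (39.5%, against 32.3% of all entries) and 7 lower (18.4%, against 26%), with a median log2 fold change of 0.21, and none passed 4 fold. With the replicate number as a block the counts were 17 and 8, while all entries went to 10787 and 8982. Among named assembled loci 26.9% were higher and 44.1% lower. With equal ERCC totals these counts were 24 and 1, on a scale where all entries went to 12519 higher and 3293 lower, and with entries strictly inside the annotated genes, which 15 of the 40 had, they were 5 and 3. Genes named first were among the 2 with the highest levels of each list, and others are named as chosen after their values were seen. Arntl2 (1.74, adjusted p = 0.000579) rose in chromatin and Npas2, the partner of BMAL1 that can replace CLOCK, did not pass (0.67, adjusted p = 0.0781), except with the block (0.027). Rora (-0.04) did not pass, and among the relatives of Dbp, Tef did (0.79, adjusted p = 0.00708) and Hlf did not (-0.15). The E-box repressors Bhlhe40 (-0.21) and Ciart (-0.07), the kinase gene Csnk1a1 (0.16) and the ubiquitin ligase gene Huwe1 (-0.08) did not pass. Prkaa2 (0.64, adjusted p = 0.0312), Nampt (0.55, adjusted p = 0.0148) and Wee1 (1.16, adjusted p = 0.00549) were higher in chromatin, and Usp7 was lower (-0.43, adjusted p = 0.00846). Of the 9 kinase and phosphatase genes 3 were higher and 4 lower, the latter Ppp1cb (-1.02), Csnk1e (-0.70), Prkaa1 (-0.48) and Csnk2a2 (-0.36), named after their values were seen. Sfpq (1.55, adjusted p = 8.6e-05) and Ncor1 (1.18, adjusted p = 0.000222), whose products act as corepressors of the PER complex and of REV-ERB, were also higher. Of the 8 matched genes in that list 5 were higher and 2 lower. The lower genes were Nono (-1.33, adjusted p = 0.000427) and Wdr5 (-0.71, adjusted p = 0.0128), chosen after their values were seen. The loci read as Usp7 and Sfpq shared only 0.504 and 0.513 of the joint span with their annotated genes. Both ran past the annotated 3′ end, so they may hold RNA from outside the gene. In 3 genes chosen after their values were seen, replicate 3 stood far from the others. Rorb had 6.1, 7.34 and 571.4 normalized counts in chromatin and 7.07, 7.19 and 452.2 in nucleoplasm. Nfil3, which opposes Dbp at D-boxes, had 404.5, 396.1 and 1450.8 in chromatin and 471, 463 and 679 in nucleoplasm, and Usp2 had 1693, 1725 and 828 in chromatin and 2269, 2096 and 994 in nucleoplasm. Usp2 did not pass by limma (-0.32, adjusted p = 0.523), except with the block (0.00868).

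Long reads from 2 chromatin libraries gave the transcripts inside each gene, on its strand, in TPM, a share of all transcripts in the library. These cDNA libraries do not keep the strand, so the strand is that of the assembled model, and with both strands Per1 came to 5.61, Cry2 to 3.36, Arntl to 7.83 and Clock to 83.95 TPM (from 3.63, 0.869, 5.19 and 53.8). By the mean of both libraries, models on the opposite strand held 3.279 TPM for Per2, 3.815 for Per3, 1.793 for Cry1 and 10.2 for Nr1d2, and none for Nr1d1 and Dbp. Inside was taken as the joint span of the annotated gene and its short-read entries, a choice made after seeing that reference transcripts pass the annotated ends. Within that span Clock was highest with 61.5 and 46.1 TPM in replicates 1 and 2, while within the annotated span alone the mean of Nr1d2 (22.98, unchanged) was above that of Clock (15.3). Of the Clock level in the joint span, 66.1% lay in models that cover at least 90% of the gene. The most abundant Clock transcript ran over chr5:76209868-76305000 with 35.2 and 29.6 TPM. Nr1d2 had 17.5 and 28.5 TPM and Nr1d1 5.25 and 5.79, each from 1 transcript model spanning the gene. By the mean of both libraries Clock and Nr1d2 were the top 2, but in replicate 1 Per3 was above Nr1d2. Counting RefSeq accession transcripts only, Per3 in replicate 1 (6.335) was below Nr1d2 (17.5), and the mean of Clock was 35.6 TPM. The means of Per1, Per2, Per3, Cry1 and Arntl were then 1.87, 3.21, 7.05, 4.62 and 1.01 TPM.

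Per3 had 22.3 and 20.2 TPM, of which 30.8% came from an intronic model at chr4:151038254-151038767. Per2 had 8.79 and 10.8 TPM with 52.0% intronic, and Per1 had 4.82 and 2.45. Cry1 had 16.8 and 11.8 TPM, with 67.7% intronic over 6 short models, and Cry2 had 1.25 and 0.492 from 1 model. Arntl had 2.765 and 7.62 TPM, and 80.6% of its mean lay in 4 intronic models. Intronic models thus made up most of the mean TPM of Per2, Cry1 and Arntl and little of that of Clock, though all 4 of Arntl and 4 of the 6 of Cry1 were at 0 in 1 of the libraries. Dbp had 0 TPM inside the gene in both libraries, and 5.13 and 1.98 TPM in a model that runs past its end. The TPM values carry no read counts, although the paper reports the approximate number of reads of each library. With the annotated span alone, Per1, Cry2 and Nr1d1 had 0 TPM, Per2 5.09, Per3 9.64 and Clock 15.3. Across the 10 genes, chromatin level per kb and long-read TPM had a Spearman rho of 0.818 and log2 fold change and gene span one of 0.018 (n = 10 each), both as description.

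**Figure D3:**
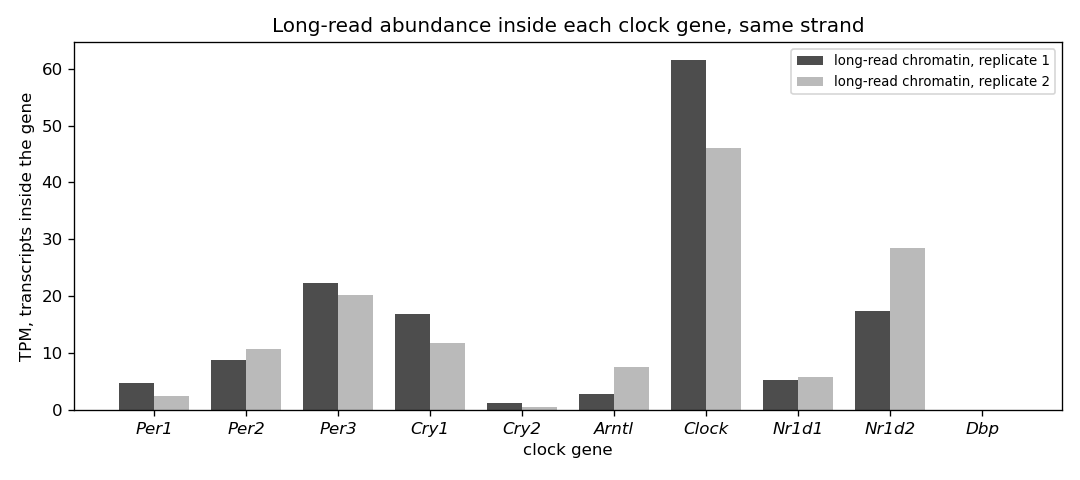
Long-read TPM of same-strand transcripts inside each clock gene in 2 chromatin libraries, without a test. Clock was highest in both libraries within the joint span, but Nr1d2 was above it by the mean within the annotated span alone, and Dbp was at 0.

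Promoters were searched for elements through which the clock proteins act on these genes, and for the CRE. A window ran from 250 bases before to 50 after each RefSeq start (build GRCm38.p6), 13 windows for 9 of the genes, with none held for Per2. The motifs were the E-box CACGTG, the E-prime box CACGTT, the D-box TTATGNAA, the RORE core TAGGTCA and the CRE TGACGTCA, read on both strands. Of 32851 promoters, 7.15%, 4.68%, 3.38%, 2.61% and 1.79% held them in that order. Per1 had an E-box and a D-box, Per3 2 D-boxes, Cry1 an E-box and an E-prime box, Cry2 and Nr1d1 an E-prime box each, and Arntl a RORE core in its second window. The windows of Clock, Nr1d2 and Dbp held none. The 6 windows with a match are shown so that each site can be located, with the motif in capitals on the strand of the gene, and a match is a description only.

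Per1 promoter chr11:69098699-69098998 plus strand GRCm38.p6: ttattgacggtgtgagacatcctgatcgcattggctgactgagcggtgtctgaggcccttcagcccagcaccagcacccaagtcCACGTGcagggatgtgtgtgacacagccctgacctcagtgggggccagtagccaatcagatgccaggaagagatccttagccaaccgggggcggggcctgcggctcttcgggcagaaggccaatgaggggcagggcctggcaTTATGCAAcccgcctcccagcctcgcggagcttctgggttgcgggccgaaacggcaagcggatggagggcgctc

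Per3 promoter chr4:151044616-151044915 minus strand GRCm38.p6: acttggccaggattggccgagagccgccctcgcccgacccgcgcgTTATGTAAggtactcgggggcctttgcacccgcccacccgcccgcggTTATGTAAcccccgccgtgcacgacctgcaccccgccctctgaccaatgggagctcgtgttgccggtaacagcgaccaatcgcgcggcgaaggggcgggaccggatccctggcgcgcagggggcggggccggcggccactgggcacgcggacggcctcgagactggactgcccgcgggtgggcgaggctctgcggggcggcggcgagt

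Cry1 promoter chr10:85185005-85185304 minus strand GRCm38.p6: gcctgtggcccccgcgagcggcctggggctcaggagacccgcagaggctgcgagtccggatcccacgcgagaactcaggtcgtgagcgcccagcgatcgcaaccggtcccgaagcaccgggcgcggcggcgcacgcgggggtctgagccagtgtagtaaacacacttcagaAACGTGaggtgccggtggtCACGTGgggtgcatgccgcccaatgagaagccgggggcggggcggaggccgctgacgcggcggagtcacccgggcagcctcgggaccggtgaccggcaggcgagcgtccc

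Cry2 promoter chr2:92434020-92434319 minus strand GRCm38.p6: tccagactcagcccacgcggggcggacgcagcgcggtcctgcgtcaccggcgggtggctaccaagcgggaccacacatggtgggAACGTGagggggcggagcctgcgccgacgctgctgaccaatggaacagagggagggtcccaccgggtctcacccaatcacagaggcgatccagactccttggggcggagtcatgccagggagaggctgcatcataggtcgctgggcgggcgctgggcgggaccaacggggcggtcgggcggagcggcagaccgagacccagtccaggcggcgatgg

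Arntl promoter chr7:113207261-113207560 plus strand GRCm38.p6: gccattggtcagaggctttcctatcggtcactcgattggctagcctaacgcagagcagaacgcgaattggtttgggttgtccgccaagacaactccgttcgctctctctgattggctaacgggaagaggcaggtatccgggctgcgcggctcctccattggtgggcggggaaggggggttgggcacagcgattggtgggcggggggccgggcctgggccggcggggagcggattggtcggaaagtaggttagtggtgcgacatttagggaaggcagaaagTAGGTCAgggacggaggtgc

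Nr1d1 promoter chr11:98775328-98775627 minus strand GRCm38.p6: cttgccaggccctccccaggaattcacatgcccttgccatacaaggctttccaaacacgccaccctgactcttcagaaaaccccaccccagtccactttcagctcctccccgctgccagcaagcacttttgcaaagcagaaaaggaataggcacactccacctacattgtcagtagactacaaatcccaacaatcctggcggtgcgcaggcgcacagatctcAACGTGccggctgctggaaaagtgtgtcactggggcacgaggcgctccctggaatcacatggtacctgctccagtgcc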

How the data were processed

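The members and lists were chosen with earlier results of these data known. For the short reads (HISAT2 2.1.0, StringTie) the authors deposited a signal per gene: gene counts divided by DESeq2 size factors. The long-read TPM values were deposited by the authors as a transcript table, without read counts. The short-read table held 65265 entries, of which 92 were ERCC standards, left out of tests, and 196683 transcripts were listed for the long reads. Libraries were grouped by title, because one label field calls the nucleoplasm libraries chromatin.

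The test was limma 3.58.1 (R 4.3.3) with trend on log2(normalized count + 1) over the 29669 entries that any library detected, and p was adjusted over all of them (Benjamini-Hochberg). Scripts were tested on simulated data. Confidence intervals are those of limma, and paralog ratios used an exact permutation test. Reads were recovered from the step between values, and 100% were whole within 0.01. The unit check did not accept recovered reads for nucleoplasm replicate 1, whose step is near a power of 10. The edgeR 4.0.16 and DESeq2 1.42.0 tests use that column with the others, so they serve as alternatives only. Between replicates the chi-square per gene was 54.2 to 2900. The highest value was between nucleoplasm replicates 1 and 2, and it uses the replicate 1 reads that the unit check did not accept. The measure sets separate cultures against counting error only, so no conclusion is drawn from it.

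The replicate number was used to pair the libraries in the block and in the ratios by replicate number. Deviations from the group means correlated at 0.217, 0.204 and 0.491 for the same number, and replicates 1 and 2 crossed gave 0.171 and 0.212. The values thus set replicate 3 apart in both fractions, but they do not show which of replicates 1 and 2 belong together. Genes were named by a rule: all members, and the 2 highest of each pathway list, of which 1 gene is not reported here. Other pathway genes are named because of their values. The sum of entries inside a gene was first computed with wider bounds and then corrected to the annotated span, with the results known. The bounds for long reads, the match by accession only and leaving out replicate 3 were chosen after seeing the data. Tables were handled in Python 3.11.15 with pandas 2.3.3, numpy 2.4.6 and scipy 1.17.1.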

Additional observations from a re-analysis of the deposited data

How the results depend on the processing

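Per1, Per2, Per3, Cry1, Cry2, Clock and Nr1d2 kept their direction under every alternative that gave them a value. The number of clock genes called lower, 2 as reported, was 1 without the trend, 0 with equal ERCC totals, 1 with quantile normalization, 1 at an adjusted p under 0.01, 1 by accession only and 4 with replicate 3 of both fractions left out, and 1 to 3 with each library left out in turn. With entries strictly inside the annotated span, 0 clock genes were higher and 1 lower, and 5 pathway genes were higher and 3 lower. Per1, Per2, Per3, Cry2, Clock, Nr1d1 and Nr1d2 have no such entry, so that setting gives them no value. Bounds widened to the joint span, chosen after seeing the data, gave the reported counts. With equal ERCC totals, 24 pathway genes were higher and 1 lower (15 and 7 as reported), and Arntl turned to 0.40, Nr1d1 to 0.64 and Dbp to 0.0477. Arntl also turned to 0.44 by accession only and Nr1d1 to 0.18 with quantile normalization. Leaving out single libraries moved Nr1d1 from -0.3223 to 0.0361, and where a fraction kept 2 libraries their spread was pooled over both. The causes were not tested, except that fewer genes had an entry inside the annotated span.

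The replicate block gave 6 clock genes higher and 3 lower. It brought Dbp past the threshold (-0.68, limma adjusted p = 0.0119) and changed no other call on the 10 genes. In the pathway list it changed the calls on Npas2, Usp2 and Ep300 only. Over all entries, edgeR gave 8550 higher and 7984 lower, DESeq2 8617 and 7676, and quantile normalization 7485 and 8694. Leaving out replicate 3 of both fractions gave 9965 and 8383. The long-read TPM values carry no read counts. The paper reports the approximate reads of each long-read library, but the lowest level they could detect was not worked out here.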
